A study of Mus musculus with 4 samples.

Results

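The genes described here are 33 genes of glycolysis, glycogen metabolism and the response to low oxygen, taken by name and not by a measured value. Earlier results of these data were known when they were chosen. All 33 were found among 21887 protein-coding mouse genes, and 136 of the 29351 accessible regions near such genes lay inside them or within 10 kb of them. Accessible chromatin was mapped by ATAC-seq, which reads out where the Tn5 transposase can cut into DNA. The cells came from Sphk2 KO mice (2 libraries), which lack sphingosine kinase 2, an enzyme that makes the signalling lipid sphingosine 1-phosphate, and from WT mice (2 libraries). Both genotypes had received EL4 cells, a line from a T cell lymphoma of the mouse, and at day 14 cells carrying Gr1 and CD11b were sorted from ascitic fluid as myeloid-derived suppressor cells, which are immature myeloid cells known for restraining T cells. Each library was made from 20000 cells with 40% of the recommended Tn5. The labels call the 2 libraries of each genotype biological replicates. They give no age, sex, strain or Sphk2 allele, and do not say which animals or pools of animals a library came from. Every p-value therefore takes the library as the unit, and how far libraries stand for separate animals is not known.

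Glycolysis splits glucose into pyruvate, and in cells that make lactate the pyruvate is reduced by lactate dehydrogenase and exported by monocarboxylate transporters. Glycogen is the branched storage polymer of glucose, which neutrophils and related myeloid cells keep as a fuel reserve. When oxygen is short, prolyl hydroxylases stop marking the HIF alpha subunits for destruction through Vhl, and HIF pairs with Arnt to bind DNA at hypoxia response elements, whose core is ACGTG or GCGTG. Many glycolytic genes carry such cores in their promoters.

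The files list called peaks, so a gene here is described by where a peak was called and by the authors' −log10 q, the score of that peak against the local background. Sphk2 KO replicates 1 and 2 rested on 25877428 and 27686223 retained fragments and held 20759 and 27446 peaks, and WT replicates 1 and 2 rested on 33859480 and 34443062 fragments and held 31507 and 31843 peaks. The score grows with depth and a peak can be missed where depth is low. A missing call therefore does not show closed chromatin, and the part of depth in any difference below was not tested. In such bulk libraries, fewer cells with an open region and a less open region in each cell cannot be told apart. To compare libraries, the score of each was ranked over the 16973 regions called in all 4, as a percentage in which 0 is the strongest. Among markers of the sorted cells, 8 and 9 of 12 granulocytic genes had a peak at most 1 kb from either end of the gene in Sphk2 KO replicates 1 and 2, and 10 and 9 in WT replicates 1 and 2. For monocytic genes the counts were 4 and 5 of 10 in Sphk2 KO and 7 and 8 in WT, and for T cell genes, which EL4 cells could also carry, 3 and 2 of 10 in Sphk2 KO and 3 and 5 in WT. Itgam (CD11b), S100a8 and S100a9 had one in all 4 libraries, whereas Ly6g had none. Of the T cell genes Cd3d and Cd5 had one in all 4 libraries and Cd3e, Cd3g, Lck, Cd2 and Tcf7 had none in any. The strongest Cd3d peak had a −log10 q of 104 and 198 in Sphk2 KO and 124 and 144 in WT. Of 5 erythroid markers Klf1 alone had a peak in each library, and no B cell marker of 6 and no gene of 8 that are silent in blood had one. Fewer monocytic markers were thus called in both Sphk2 KO libraries, and their part in the results below was not tested. The monocytic shares were 40% and 50% in Sphk2 KO and 70% and 80% in WT. Over all genes the shares were 42.6% and 47.3% in Sphk2 KO and 47.9% and 48.8% in WT. Of the monocytic genes, Fn1 and Irf8 were called in WT libraries only, and Csf1r, Cx3cr1, Klf4 and Adgre1 in all 4. Ly6c2 was missing in Sphk2 KO replicate 1 alone, and F13a1 was called in WT replicate 2 alone.

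Most of these metabolic genes were accessible at their ends, and the same number was so in both genotypes. A peak lay within 1 kb of either gene end at 28 of the 33 genes in each Sphk2 KO library and at 28 in each WT library, a difference of 0 (two-sided exact permutation test, p = 1; with 2 libraries against 2 the smallest possible p is 0.333). The same 28 genes (84.8%) had such a peak in all 4 libraries, against 41.6% of all protein-coding genes. None of the 33 had one in both Sphk2 KO libraries and neither WT library (0.101% of all genes), and none had one in both WT libraries and neither Sphk2 KO library (1.27% of all genes). Over all genes, 42.6% and 47.3% had a gene-end peak in Sphk2 KO replicates 1 and 2 and 47.9% and 48.8% in WT replicates 1 and 2.

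The other 5 genes were Hk1, Pfkfb4, Ldha, Pdk4 and Hif1a, and 4 of them were accessible at a start inside the gene. Hk1 (hexokinase 1), Pfkfb4 (a kinase and phosphatase that sets the level of fructose 2,6-bisphosphate), Ldha (lactate dehydrogenase A) and Hif1a (the oxygen-regulated HIF subunit) each have an annotated RefSeq transcript start more than 1 kb from their outermost ends. The −log10 q at the Hk1 start was 87.5 and 214 in Sphk2 KO replicates 1 and 2 and 178 and 169 in WT replicates 1 and 2. No peak was called at the outer start of Hk1 in any library. Pfkfb4 had 93.5 and 138 at its start in Sphk2 KO, and 114 and 120 in WT. Hif1a had 66.1 and 156 in Sphk2 KO and 141 and 129 in WT. Counted at transcript starts, an alternative chosen after seeing the data, 30 of the 31 genes with a start in the RefSeq promoter table had a peak in all 4 libraries, against 44% of 17492 genes. The remaining gene had none, against 46.8% of all genes. Taking all starts of a gene together, no gene was called only in Sphk2 KO (0.0915% of all genes) or only in WT (1.31%). A single start of Pdk1 (chr2:71874904) had a peak within 1 kb in Sphk2 KO only, with 77.5 and 133. That peak belongs to a region called in all 4 libraries. Pdk4, the kinase that shuts off pyruvate dehydrogenase on fasting, had no peak within 10 kb in any library, and the other 32 genes had at least 1 in each library, against 55.2% of all genes with one in all 4. In that window too, none of the 33 was called only in Sphk2 KO (0.114% of all genes) or only in WT (2.14%).

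**Figure D1:**
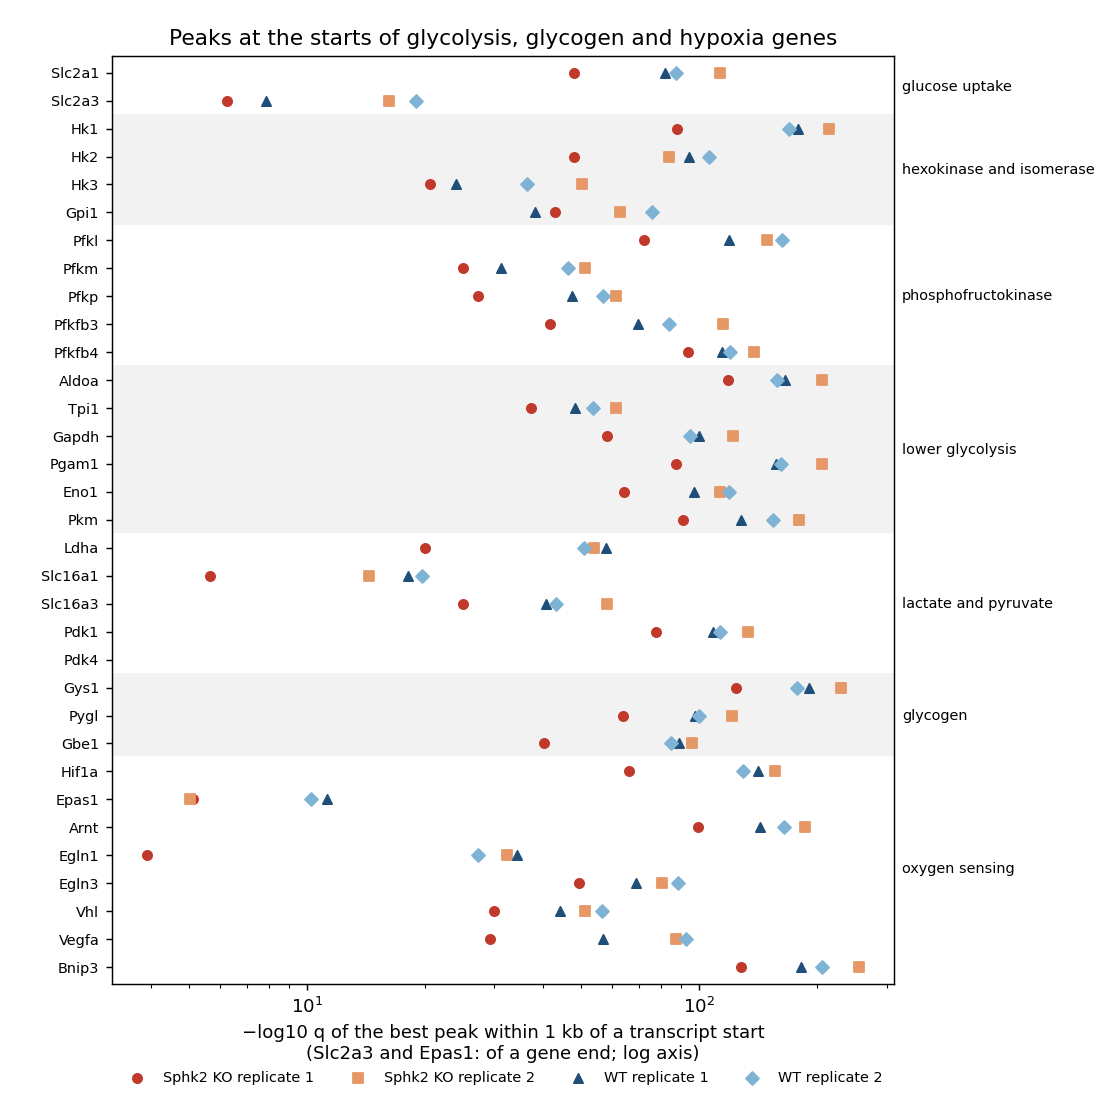
The authors' −log10 q (log axis) of the strongest peak at a transcript start of each gene, or at a gene end for Slc2a3 and Epas1, which have no start in the table. Each gene has its points for the 2 Sphk2 KO and the 2 WT libraries. Pdk4 has none, Sphk2 KO replicate 1 is the lowest at 30 of the 32 genes shown, and the lowest point is Egln1 in that library (3.91).

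The −log10 q of the 28 genes' strongest gene-end peaks spread widely. It ran in Sphk2 KO replicate 1 from 3.91 to 128 with a median of 45.4, in Sphk2 KO replicate 2 from 5.03 to 255 with a median of 85.3, in WT replicate 1 from 7.83 to 190 with a median of 75.3, and in WT replicate 2 from 10.2 to 206 with a median of 87.6. The libraries ordered these values more than the genotypes did. At a start, or at an end for Slc2a3 and Epas1, Sphk2 KO replicate 1 had the lowest of the 4 values at 30 of 32 genes and Sphk2 KO replicate 2 the highest at 20. Over all 7705 genes with a start called in every library, Sphk2 KO replicate 1 was the lowest at 93.8% and Sphk2 KO replicate 2 the highest at 71.1%. The median percentage rank of the 31 gene-end regions called in all 4 libraries was 31.9 for the mean of the Sphk2 KO libraries and 24.7 for the mean of the WT libraries. The medians over all 8162 such regions were 36 in Sphk2 KO and 35 in WT. The difference taken region by region was small, with a median of 0.60 over the 31 regions and 0.45 over all 8162.

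The strongest starts in every library were those of Bnip3 and Gys1. The region at the Gys1 start also overlaps the gene Ruvbl2 and lies within 1 kb of a start of it, so its values may belong to either gene. Bnip3, a mitochondrial mitophagy receptor and textbook HIF target, had a −log10 q of 128 and 255 in Sphk2 KO and 182 and 206 in WT, and Gys1, muscle-type glycogen synthase, had 124 and 229 in Sphk2 KO and 190 and 177 in WT. Their mean percentage ranks in Sphk2 KO exceeded those in WT by 0.0236 for Bnip3 and 0.171 for the start of Gys1, and in neither gene did the ranks separate the genotypes. Promoter sequences are shown for Bnip3, as a strong start with close ranks, and for 4 genes whose start had the widest differences in rank between the genotypes, to show how the cores are placed. These are Hk2 (hexokinase 2, which binds mitochondria), Slc16a1 (the lactate transporter MCT1), Ldha and Egln1 (the prolyl hydroxylase PHD2). The RefSeq sequences (GRCm38.p6) below are the 250 bases before each start, 5′ to 3′ on the gene's strand, with each ACGTG or GCGTG core in capitals on either strand (CACGT and CACGC are the reverse complements, and CACGTG holds a core on each strand). They lie at chr7:138909507-138909756 (minus strand) for Bnip3, chr6:82774455-82774704 (minus) for Hk2, chr3:104638414-104638663 (plus) for Slc16a1, chr7:46845554-46845803 (plus) for Ldha and chr8:124949255-124949504 (minus) for Egln1.
Bnip3: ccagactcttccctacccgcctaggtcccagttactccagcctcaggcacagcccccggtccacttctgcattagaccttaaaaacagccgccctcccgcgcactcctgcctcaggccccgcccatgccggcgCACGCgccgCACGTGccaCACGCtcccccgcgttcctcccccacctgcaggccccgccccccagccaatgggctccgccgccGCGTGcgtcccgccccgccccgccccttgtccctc
Hk2: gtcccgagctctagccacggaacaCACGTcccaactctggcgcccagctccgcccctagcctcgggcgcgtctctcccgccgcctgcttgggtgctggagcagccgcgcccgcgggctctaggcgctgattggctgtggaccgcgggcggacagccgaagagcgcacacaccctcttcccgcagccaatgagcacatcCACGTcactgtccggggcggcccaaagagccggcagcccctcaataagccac
Slc16a1: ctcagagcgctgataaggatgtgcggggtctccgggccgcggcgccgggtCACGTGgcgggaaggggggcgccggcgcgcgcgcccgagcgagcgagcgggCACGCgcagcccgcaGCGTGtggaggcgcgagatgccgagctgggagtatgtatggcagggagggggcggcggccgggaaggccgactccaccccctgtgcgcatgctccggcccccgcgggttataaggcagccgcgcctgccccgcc
Ldha: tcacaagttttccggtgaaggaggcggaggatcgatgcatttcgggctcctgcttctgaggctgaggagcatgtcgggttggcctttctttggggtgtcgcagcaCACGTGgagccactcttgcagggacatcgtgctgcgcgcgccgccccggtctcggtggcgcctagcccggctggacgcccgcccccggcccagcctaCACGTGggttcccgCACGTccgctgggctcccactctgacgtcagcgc
Egln1: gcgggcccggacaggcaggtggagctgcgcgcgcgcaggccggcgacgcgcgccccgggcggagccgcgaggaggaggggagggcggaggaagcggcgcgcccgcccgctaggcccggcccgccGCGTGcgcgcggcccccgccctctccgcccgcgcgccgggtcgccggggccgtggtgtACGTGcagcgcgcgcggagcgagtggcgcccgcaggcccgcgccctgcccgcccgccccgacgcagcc
Counting CACGTG once for each strand, Bnip3 and Ldha had 5 cores each, Slc16a1 had 4, and Hk2 and Egln1 had 2 each. In Bnip3 4 of the 5 cores lie side by side, and in Ldha the cores include a pair of CACGTG palindromes.

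Over all windows of 300 bases (250 before to 50 after a start), ACGTG on either strand was found at a start of 19 of the 31 genes with a start in the table (61.3%), against 23.2% of 17492 genes. Among genes with a start region called in all 4 libraries the shares were 19 of 30 (63.3%) and 31.5% of 7746 genes. GCGTG was found in 18 of those 30 (60%) against 58.9%, and CACGTG, which contains ACGTG, in 6 of 30 (20%) against 12.6%. These shares take a core at any start of a gene. At Vegfa, ACGTG lay only at a start that was not called. Counted by start, ACGTG was found at 20 of 38 starts called in all 4 libraries (52.6%), against 28% of 9170. For GCGTG this was 19 of 38 (50%) against 55.1%. The median GC content of the promoters with a start region called in all 4 libraries was 63% for these genes and 62% for all genes. A match is a run of letters and does not show that HIF was bound.

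Beyond the ends, the 33 genes held 136 regions within the gene or 10 kb of it, and fewer of them were called in Sphk2 KO. The counts were 84 and 112 regions in Sphk2 KO replicates 1 and 2 and 114 and 116 in WT replicates 1 and 2, or 98.0 ± 19.8 against 115 ± 1.41 (mean ± SD, n = 2 libraries each). The groups did not overlap, and the difference of −17 had the smallest p the design allows (two-sided exact permutation test, p = 0.333). Without Sphk2 KO replicate 1 the difference was −3. The separation was lost with equal numbers of top peaks per library (84 and 98 in Sphk2 KO, 97 and 96 in WT; difference −5.5, permutation p = 1) and with no extension of the genes (59 and 82 in Sphk2 KO, 80 and 80 in WT; difference −9.5, permutation p = 1). With a minimum −log10 q of 5 the groups met, at 78 and 101 in Sphk2 KO and 101 and 104 in WT. Near all genes, 54.4% and 71.5% of 29351 regions were called in Sphk2 KO and 74.9% and 78.9% in WT, and near these genes 61.8% and 82.4% in Sphk2 KO and 83.8% and 85.3% in WT.

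Of the 136 regions, 79 (58.1%) were called in all 4 libraries, against 48.9% of all regions near genes. For 20 of the 136 the nearest gene end was that of another gene, and these were kept in all counts. No region was called in both Sphk2 KO libraries and neither WT library (0.62% of all), and 9 (6.62%) were called in both WT libraries and neither Sphk2 KO library (5.45% of all), a share near the background. Another 14 (10.3%) were missing in Sphk2 KO replicate 1 alone, against 8.36% of all regions, and they sat at Hk2 (4), Hk1 (3), Pfkfb3 (3), Pfkfb4 (2), Pgam1 (1) and Egln1 (1). Sphk2 KO replicate 2 alone lacked 1 region (0.735%; 0.596% of all), WT replicate 1 alone 3 (2.21%; 1.05% of all) and WT replicate 2 alone 1 (0.735%; 0.549% of all).

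**Figure D2:**
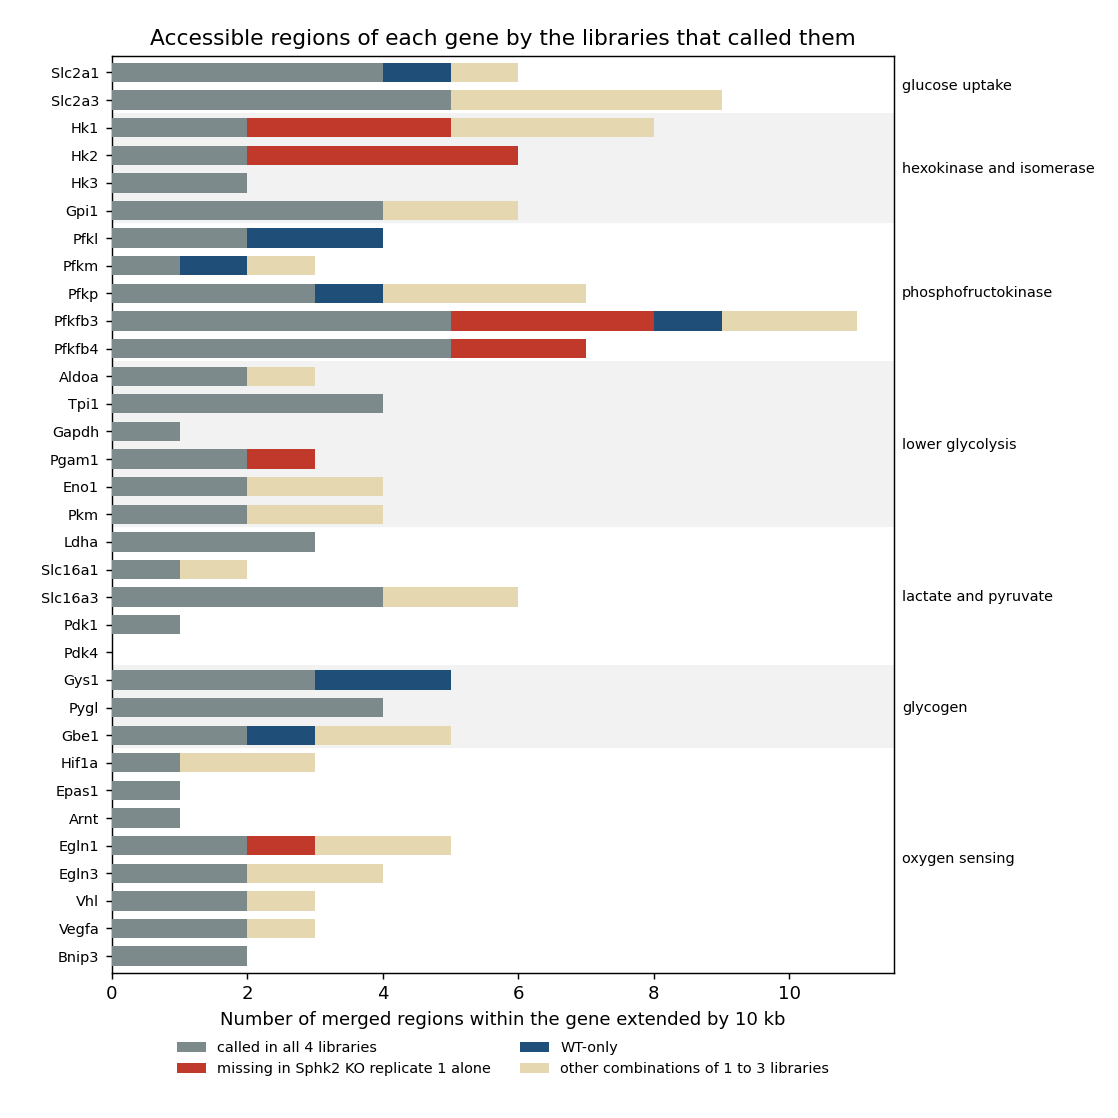
Number of merged regions within each gene or 10 kb of it, split by the libraries in which they were called. The 79 regions called in all 4 libraries make up the largest class, the 9 called in WT libraries only are spread over 7 genes, and no region was called in Sphk2 KO libraries only.

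Glucose uptake and trapping come first in the pathway. Slc2a1, the basal glucose transporter GLUT1, had a −log10 q of 48 and 113 at its start in Sphk2 KO and 81.5 and 86.9 in WT. A region 2523 bp beyond its far end (chr4:119139853-119140525) was called only in WT, with 6.69 and 13.3. A shared region 2667 bp before its start, beginning at 119105681, had 25 and 36 in Sphk2 KO and 50.9 and 47.7 in WT, and its ranks did not overlap between the genotypes. Slc2a3, the high-affinity transporter GLUT3, had gene-end peaks of 6.23 and 16.2 in Sphk2 KO and 7.83 and 18.9 in WT. Its strongest region lay 8121 bp beyond a gene end, with 109 and 244 in Sphk2 KO and 190 and 161 in WT, which overlap. The table gives Slc2a3 a span of 74555 bp and no transcript start, so these gene-end values, also where they are counted or plotted among starts, may not mark its main promoter.

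Among the enzymes that phosphorylate glucose, Hk2 and Hk3 stood on opposite sides. At the start of Hk2 the −log10 q was 48 and 83.7 in Sphk2 KO and 94 and 106 in WT, so both Sphk2 KO values lay below both WT values. The percentage rank was 23.0 and 27.3 in Sphk2 KO and 14.7 and 14.1 in WT, a mean difference of 10.8 towards a weaker place in Sphk2 KO. A second Hk2 region, chr6:82763760-82764687, had 36.8 and 66.4 in Sphk2 KO and 74.7 and 90.5 in WT. Another 4 regions of Hk2 were missing in Sphk2 KO replicate 1 alone. Sphk2 KO replicate 2 called them as both WT libraries did, so these calls did not separate the genotypes. At Hk3, the hexokinase known from myeloid cells, the start had 20.5 and 50.3 in Sphk2 KO and 24 and 36.4 in WT, and the ranks were 51.8 and 44.9 in Sphk2 KO and 62.7 and 53.1 in WT, a mean difference of −9.56 towards a stronger place in Sphk2 KO. Hk3 was thus ranked higher in both Sphk2 KO libraries, although its −log10 q overlapped. An intragenic Hk1 region beginning at chr10 position 62327093 had 2.64 and 6.49 in Sphk2 KO and 13.9 and 13.3 in WT, the ranks again apart. Gpi1, the isomerase of the next step, had 42.8 and 62.9 at its end in Sphk2 KO and 38 and 75.6 in WT, which overlap.

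**Figure D3:**
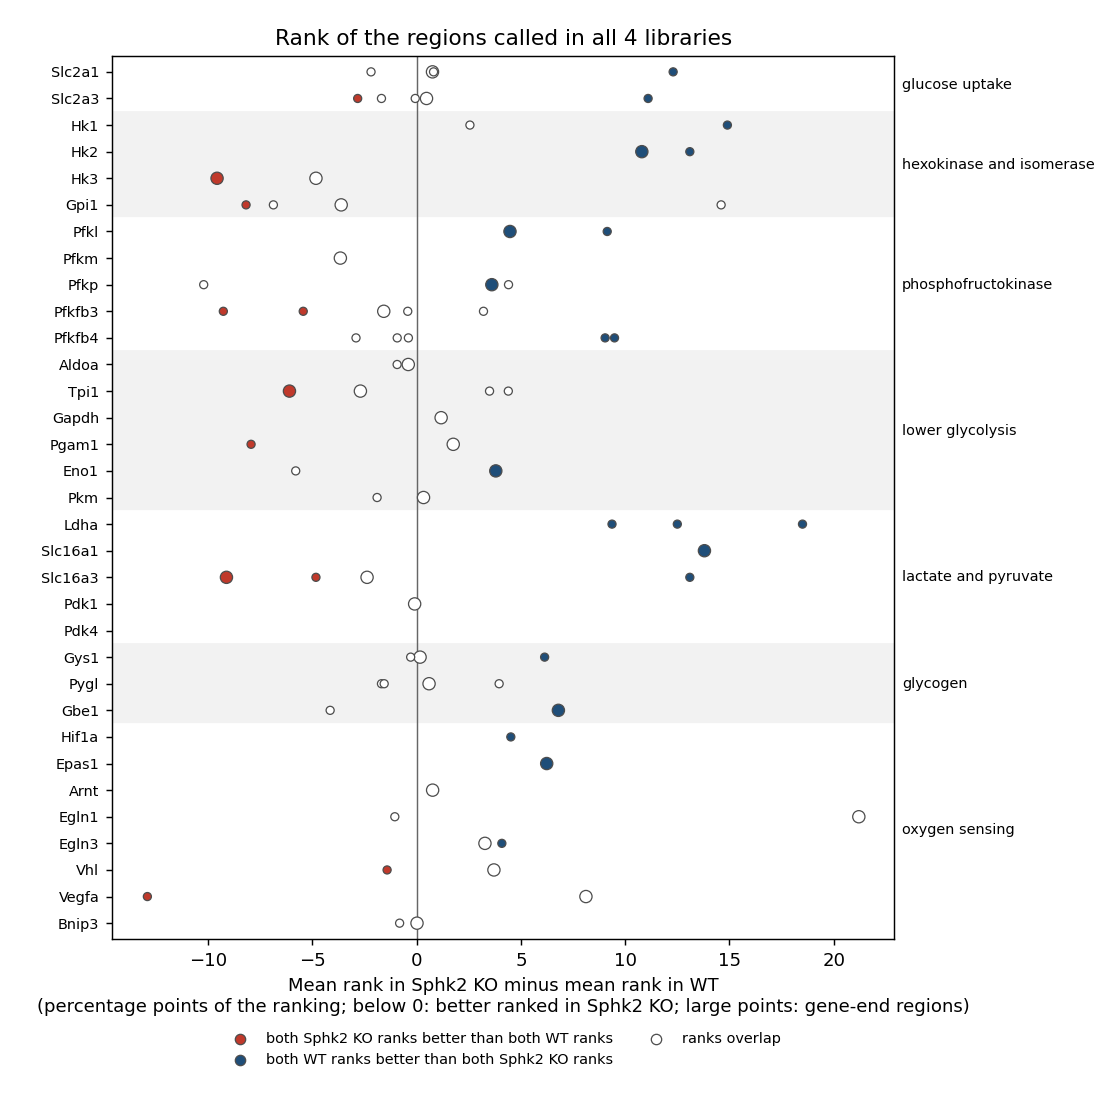
Difference in mean percentage rank of −log10 q, Sphk2 KO minus WT, for the 79 regions called in all 4 libraries, by gene. Points right of 0 hold a weaker place in Sphk2 KO, large points are gene-end regions, and filled points have ranks that do not overlap between the genotypes. The start of Slc16a1 (13.8) and of Hk2 (10.8) and all 3 regions of Ldha are filled on the right, and Hk3 (−9.56) is filled on the left.

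The phosphofructokinase step is the committed step of glycolysis. Its genes, grouped with Pfkfb3 and Pfkfb4, held 5 of the 9 regions called in WT libraries only, among their 32 regions. The share over all regions near genes was 5.45%. The glycogen genes held 3 among 14 regions and the glucose uptake genes 1 among 15. Counts this small were not tested against that share. With equal numbers of top peaks per library 2 of the 5 WT-only regions left in the set belonged to the phosphofructokinase group (at Pfkl and Pfkp). With no extension of the genes 2 of 4 did (at Pfkfb3 and Pfkp). Pfkl, the liver-type subunit, had 2: chr10:77984596-77985153 with a −log10 q of 14.9 and 9.84 in WT, nearest to an end of the neighbouring gene Cfap410 at 285 bp, and chr10:78015570-78015793, 5763 bp outside the gene, with 6.38 and 6.80. The gene-end peak of Pfkl had 72.4 and 149 in Sphk2 KO and 119 and 162 in WT. Its ranks, 11.7 and 10.2 in Sphk2 KO and 8.67 and 4.30 in WT, did not overlap. Pfkp, the platelet-type subunit, had a region inside the gene (chr13:6633359-6633869) with 10.6 and 12.4 in WT only. At its gene end Pfkp had 27.2 and 61.2 in Sphk2 KO and 47.4 and 56.8 in WT. Pfkfb3, which makes fructose 2,6-bisphosphate, the activator of phosphofructokinase, had a WT-only region inside the gene (chr2:11496660-11497140) with 12.7 and 6.54. Its 2 annotated starts were called in every library, with 35.3 and 67.1 in Sphk2 KO and 53.3 and 53.6 in WT at one, and 41.5 and 115 in Sphk2 KO and 69.9 and 83.6 in WT at the other. Pfkm, the muscle-type subunit, had a WT-only region (chr15:98089555-98090005; 5.43 and 5.33) that lies within the adjoining gene Senp1. At its gene end Pfkm had 25 and 51.1 in Sphk2 KO and 31.2 and 46.3 in WT, at a start shared with Senp1. Within Pfkfb3 the direction was not uniform, since a shared region beginning at 11535347 had 25.7 and 56.9 in Sphk2 KO and 27.3 and 44.4 in WT, with ranks stronger in Sphk2 KO.

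The enzymes of lower glycolysis, Aldoa, Tpi1, Gapdh, Pgam1, Eno1 and Pkm, from aldolase to pyruvate kinase, were called at their ends in all 4 libraries and held no WT-only region among 19 regions, a count too small to set apart from the 5.45% of all regions near genes. Their gene-end −log10 q ran from 37.2 (Tpi1) to 118 (Aldoa) in Sphk2 KO replicate 1, from 61.3 to 205 in Sphk2 KO replicate 2, from 48.2 to 165 in WT replicate 1 and from 53.5 to 161 in WT replicate 2. Eno1 (enolase) had ranks of 14.4 and 17.9 in Sphk2 KO and 13.7 and 11.0 in WT, which did not overlap. A second end region of Tpi1 (triosephosphate isomerase), shared with the neighbouring gene Spsb2, had 6.21 and 10.9 in Sphk2 KO and 5.29 and 8.57 in WT and held a stronger place in Sphk2 KO, with a mean difference of −6.09.

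Of the genes that handle lactate and pyruvate, Ldha and Slc16a1 ranked lower in both Sphk2 KO libraries. At the Ldha start the −log10 q was 20 and 53.8 in Sphk2 KO and 57.9 and 50.9 in WT, which overlap, while the ranks were 52.5 and 42.7 in Sphk2 KO and 30.5 and 39.8 in WT. A region 8124 bp before its outer end, chr7:46833392-46834150, had 5.24 and 14.8 in Sphk2 KO and 26.1 and 17.5 in WT, and one 2524 bp before it, chr7:46838535-46839750, had 10.5 and 14.2 in Sphk2 KO and 20.7 and 21.3 in WT. All 3 regions near Ldha thus had ranks apart in the same direction. Slc16a1 had the weakest start of this group, with 5.65 and 14.4 in Sphk2 KO and 18.1 and 19.6 in WT, and ranks of 90.2 and 85.3 in Sphk2 KO and 72.8 and 75.1 in WT. Slc16a3, the lactate exporter MCT4 of glycolytic cells, was mixed: its start had 25 and 58.1 in Sphk2 KO and 40.7 and 43 in WT. An intragenic region of Slc16a3 beginning at 120950471 had 21 and 38.1 in Sphk2 KO and 47.9 and 47.7 in WT, with ranks weaker in Sphk2 KO. Its other end, shared with Csnk1d, had 6.09 and 16 in Sphk2 KO and 4.63 and 10.3 in WT, with ranks stronger in Sphk2 KO (mean difference −9.11). Pdk1, the kinase that HIF induces to hold back pyruvate dehydrogenase, had 77.5 and 133 in Sphk2 KO and 108 and 113 in WT.

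Glycogen metabolism had the strongest region of the set that was called in WT libraries only. It lies inside Gys1, 16588 bp from the start, at chr7:45451427-45451634, with a −log10 q of 24.7 and 29.8, a fold enrichment of 7.66 and 7.81 and a pileup of 45 and 54 fragments in WT replicates 1 and 2, and no peak in either Sphk2 KO library. Near these genes, 81 regions reached a −log10 q of 10 in both WT libraries and 2 of them (2.47%) had no peak in Sphk2 KO, against 1.37% of 13562 such regions near all genes. For a −log10 q of 20 this was 1 region of 58 (1.72%), the one inside Gys1, against 0.227% of 10149. A second WT-only region (chr7:45457097-45457795; 5.59 and 5.62) lies 480 bp from the other end of Gys1 and 149 bp from Ftl1, which encodes ferritin light chain. Gys1 lies 0.253 Mb from Sphk2, the deleted gene, and Ldha 1.12 Mb from it, on the same chromosome, so a carried-over stretch of the chromosome around the deletion and the loss of Sphk2 cannot be told apart there. Within 2 Mb of Sphk2, 8.03% of 137 regions were called in WT libraries only, against 5.45% of all regions near genes. There, the ranks of 36.6% of 71 shared regions were weaker in both Sphk2 KO libraries, against 21.2% of all shared regions near genes. Of the 6 shared regions within 10 kb of Gys1 or Ldha, 4 were among them. These were all shared regions near Ldha and a region at a start of Ftl1, 2388 bp from Gys1, which may belong to Ftl1. The remaining shared regions lay at the start of Gys1 and at a start of Bax. The 137 and 71 regions were not limited to those within 10 kb of a gene, unlike the shares over all genes set beside them. Gbe1, the glycogen branching enzyme, had a WT-only region inside the gene (chr16:70328875-70329472; 3.59 and 6.65), and its start had 40.2 and 95.8 in Sphk2 KO and 88.6 and 84.4 in WT, with ranks of 28.6 and 22.8 in Sphk2 KO and 16.3 and 21.5 in WT. Pygl, the liver-type glycogen phosphorylase, which releases glucose from glycogen, had 63.7 and 121 in Sphk2 KO and 97.6 and 100 in WT, which overlap.

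**Figure D4:**
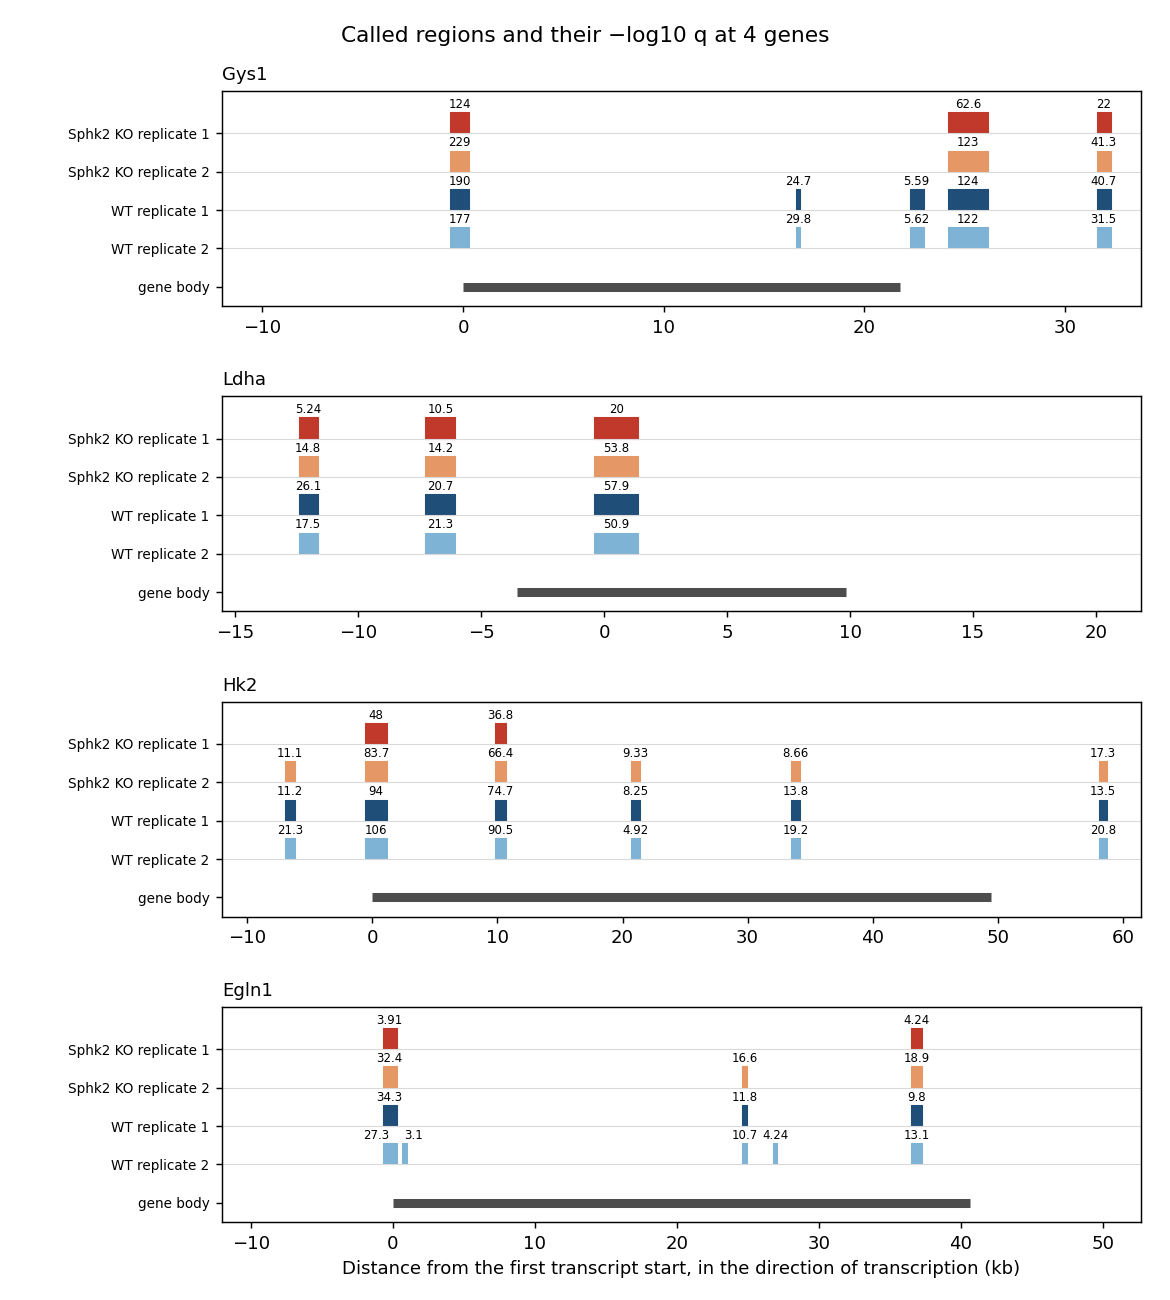
Regions called in each library at Gys1, Ldha, Hk2 and Egln1, with Sphk2 KO libraries above WT libraries. The horizontal axis is the distance from the transcript start, each box is a merged region in which that library had a peak, and the number above it is the authors' −log10 q. The region inside Gys1 with 24.7 and 29.8 in WT has no box in either Sphk2 KO library, and the start of Egln1 has 3.91 in Sphk2 KO replicate 1 against 32.4 in Sphk2 KO replicate 2.

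Among the oxygen sensing genes the widest difference in rank came from 1 library. None of their 22 regions was called in WT libraries only, a count too small to set apart from the 5.45% of all regions near genes. At the Egln1 start the −log10 q was 3.91 and 32.4 in Sphk2 KO and 34.3 and 27.3 in WT. Its mean rank was 78.0 in Sphk2 KO and 56.8 in WT, the widest difference of any gene-end region here (21.2), but the groups overlapped, because Sphk2 KO replicate 1 stood apart from the other 3 libraries. Epas1, which encodes HIF-2 alpha, had weak gene-end peaks of 5.12 and 5.03 in Sphk2 KO and 11.2 and 10.2 in WT, and its ranks of 91.7 and 98.5 in Sphk2 KO and 86.2 and 91.5 in WT did not overlap. The Hif1a start had ranks of 13.9 and 9.33 in Sphk2 KO and 5.39 and 8.77 in WT, also apart. Vegfa, the angiogenic growth factor induced by HIF, had 29.3 and 87 at its start in Sphk2 KO and 56.7 and 92.6 in WT. A region 2947 bp beyond the other end of Vegfa had 10.8 and 27.9 in Sphk2 KO and 14.4 and 13.9 in WT, with ranks of 73.2 and 65.7 in Sphk2 KO and 79.5 and 85.2 in WT, the largest difference towards Sphk2 KO in the set (−12.9). Arnt, Egln3 (the prolyl hydroxylase PHD3) and Vhl had −log10 q values at their ends from 30 (Vhl) to 99.3 (Arnt) in Sphk2 KO replicate 1, from 51 to 186 in Sphk2 KO replicate 2, from 44.2 to 143 in WT replicate 1 and from 56.6 to 164 in WT replicate 2.

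Counted over the set, 7 of the 31 gene-end regions called in all 4 libraries (22.6%) held a weaker place in both Sphk2 KO libraries than in both WT libraries, against 23% of 8162 such regions of all genes. They belonged to Slc16a1, Hk2, Gbe1, Epas1, Pfkl, Eno1 and Pfkp. Another 3 (9.68%) held a stronger place in both Sphk2 KO libraries, at Hk3, Slc16a3 and Tpi1, against 17.3%. The share weaker in Sphk2 KO was therefore near that of all genes. Over all 79 shared regions within 10 kb, 21 (26.6%) held a weaker place in both Sphk2 KO libraries, against 21.2% of 14367, and 11 (13.9%) a stronger one, against 21.6%. Some of these regions lay nearest to an end of another gene and may belong to it. Those genes were Cfap410, Shisa5 and Ftl1 among the weaker regions. Among the stronger regions they were Pdcd2l, Spsb2, Ccdc57, Csnk1d and Irak2. The median difference in rank was 0.34 over the 79 regions and −0.02 over all 14367.

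A further 59 genes of the same pathways, among them Pgk1, Ldhb, Hif1an and Ndrg1, were counted in the same way. A gene-end peak was called at 44 and 50 of them in Sphk2 KO replicates 1 and 2 and at 49 in each WT library, or 47.0 ± 4.24 against 49.0 ± 0 (SD, n = 2 each; difference −2, two-sided exact permutation test, p = 1). The 44 genes called in all 4 libraries (74.6%) stand beside 41.6% of all genes. None was called in both libraries of 1 genotype and neither of the other, and Tigar, Pfkfb1, Stbd1 and Mxi1 were missing in Sphk2 KO replicate 1 only. Without that library the sign of the difference turned, to 1 more gene in Sphk2 KO.

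Counts of genes did not hinge on the limits of the windows, but counts of regions did: the genes held 94 regions with no extension and 187 with 25 kb, against 136 with 10 kb. The gene-end region nearest to the 1 kb limit lay 917 bp from Tpi1, and the first one beyond it lay 1127 bp from Pfkp, with a −log10 q of 8.39 and 13.7 in Sphk2 KO and 13.5 and 18.9 in WT. The region nearest to the 10 kb limit lay 9814 bp from Gys1, with 22 and 41.3 in Sphk2 KO and 40.7 and 31.5 in WT. That region overlaps the gene Bax near a start of it and may belong to Bax. The first region beyond the limit lay 10006 bp from Slc16a3, called in Sphk2 KO replicate 1 alone with 1.7.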

How the data were processed

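The 4 deposited peak lists were used, 1 for each of 2 Sphk2 KO and 2 WT libraries (mm10). Cutadapt, BWA and MACS2 are named in the submitters' processing notes. Per the file headers, peaks were called in each library separately by MACS 2.1.1.20160309 from paired-end data at a q-value cutoff of 0.05, with no control library and 1 fragment kept per position. The deposited lists give the pileup (a coverage signal in fragments, not scaled to depth), the −log10 of the authors' p-value and q-value, and fold enrichment, the ratio of pileup to local background as the authors' caller wrote it. No read counts per region were used. Replicate depth is given with the results.

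Peaks sharing 1 bp were merged into regions. Genes were 21887 protein-coding genes of the RefSeq table (GRCm38.p6, the same assembly), and all 33 members matched. That table gives no strand or exons, so transcript starts came from the RefSeq promoter sequences (31 of 33 members matched), an alternative chosen after seeing the data. Each library's −log10 q was ranked over the 16973 regions called in all 4 libraries. Ranks did not overlap where both values of one genotype were better than both of the other. Library counts were compared by two-sided exact permutation tests over 6 assignments. Other settings tried were a minimum −log10 q of 5, equal numbers of top peaks, other gene distances, overlaps and summit windows of 250 bp, and each library left out. The computations (Python 3.11.15, pandas 2.3.3, numpy 2.4.6) were tested on simulated data.

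Members, lists and markers were chosen with earlier results of these data known. By rule, values in every library are given for members with a genotype-only region, members without a gene-end peak, and up to 5 members per direction whose gene-end ranks did not overlap, by size. The other members and regions given with values were chosen after their values were seen.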

Additional observations from a re-analysis of the deposited data

How the results depend on the processing

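The counts of genes with a peak at an end or within 10 kb had differences between 0 and −0.5 genes under every setting tried. Of all recomputed values, 74 were scored as the same, 20 as moved and 1 as changed in sign. For differences between genotypes only a change of sign was scored. One that shrank or grew was thus among the 74, and one of 0 could not change sign. Counts of genes or regions by genotype were scored as moved beyond a set ratio. Values with the replicate block and with transcript starts were placed among the 74 without scoring. The regions called only in WT (9) numbered 4 in genes without extension, 5 with equal numbers of top peaks and between 10 and 23 with 1 library left out (10 without Sphk2 KO replicate 1, 23 without Sphk2 KO replicate 2, 16 without WT replicate 1 and 17 without WT replicate 2). The regions called only in Sphk2 KO (0) numbered 2 with windows of 250 bp around summits and between 0 and 9 with 1 library left out (9 without Sphk2 KO replicate 1). Gene-end regions ranked weaker in Sphk2 KO (7) numbered between 11 and 16 with 1 library left out, where non-overlap asks less. Those ranked stronger in Sphk2 KO (3) numbered 1 with ends within 500 bp, 1 with windows around summits, 1 with equal numbers of top peaks and between 6 and 9 with 1 library left out. The difference in regions (−17) was −5.5 with equal numbers of top peaks and −9.5 with no extension, where the genotypes overlapped, −13 at a minimum −log10 q of 5, where they met, and ran from −31.5 to −3 with 1 library left out. The difference for the further pathway genes (−2) turned to 1 without Sphk2 KO replicate 1 and was −5 without Sphk2 KO replicate 2. The causes were not tested.

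The labels do not say whether same-numbered libraries were handled together. Deviations of same-numbered libraries had r = 0.01 over 16973 regions, a value that cannot settle the question. With the replicate number as a block, the sign-flip permutation test (smallest p 0.5) gave differences of 0 (p = 1) for genes at ends and within 10 kb, −17 (p = 0.5) for regions and −2 (p = 1) for the further genes. With 2 libraries a genotype the exact permutation test used here could not give a p under 0.333, and a missing call is limited by depth.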
